A study of Oryza sativa and Triticum aestivum and Oryza sativa Japonica Group with 26 samples.

Results

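The SEPALLATA-type and AGL6-type MADS-box genes of rice were followed in young panicles, in 1 RNA library and in 20 lists of chromatin peaks. The group was chosen by gene ID and held 7 of the 55986 gene IDs in the RNA table. Of these, 5 are of the SEPALLATA type (OsMADS1, OsMADS5, OsMADS34, OsMADS7 and OsMADS8) and 2 of the AGL6 type (OsMADS6 and OsMADS17). All 7 had reads, and the chromatin around OsMADS1 was read from the peak lists. Positions of the other 6 genes on the coordinates of the lists were not available, so their chromatin was not analysed here.

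MADS-box genes encode DNA-binding transcription factors that act as dimers and tetramers. SEPALLATA proteins, known as E-function proteins, join the floral organ identity proteins of the B, C and D classes in such tetramers, and AGL6-type proteins are their nearest relatives. In grasses these genes set the identity of the spikelet, the unit that holds the florets, and of its lemma and palea. H3K27me3 is the mark that Polycomb proteins lay over silenced developmental genes, many MADS-box genes among them. H3K4me3, H3K27ac, H3K36me3 and H3K4me1 are found at active genes in plants, the first pair mainly near their starts and the second pair over their bodies.

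The panicles came from 2 field-grown rice cultivars, HHZ, of the indica type, and JZ1560, of the japonica type, neither of them transgenic or treated by any agent that the labels name. H3K27me3 was mapped in 3 libraries of each cultivar and H3K4me1 in 2 of each. H3K27ac was mapped in 2 HHZ libraries and 1 JZ1560 library, H3K4me3 in 1 HHZ library and 2 JZ1560 libraries, and H3K36me3 in 1 library of each. Each cultivar had 1 library taken by its title as input, that is, chromatin sequenced without enrichment, though its label also lists an antibody. RNA came from JZ1560 only. Nothing in the labels says that replicates came from separate plants, or how many panicles were pooled, so a p-value here speaks of variation among libraries alone, and that may be technical variation. In such bulk tissue, fewer cells that express a gene and less RNA per cell cannot be told apart.

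The RNA library held 7169403 counts on gene IDs. The 8 listed panicle and spikelet regulators had between 2 and 338 reads. FZP, a regulator of spikelet meristem identity, had 3 reads, LAX1, which acts in axillary meristems, had 5, and RFL, APO1 and TAW1 had 6, 2 and 7. IPA1, a regulator of panicle branching, had 46, the meristem gene OSH1 had 227, and DL had 338. The tapetum regulators TDR and EAT1 had 178 and 487 reads, and the leaf gene RBCS had 4288. Of the listed genes, 2 of 8 panicle and spikelet regulators reached 10 CPM (counts scaled to the library's total on gene IDs), as did 2 of 3 anther genes, 3 of 3 leaf photosynthesis genes, 0 of 2 endosperm storage genes and 3 of 3 housekeeping genes. Over all gene IDs the share was 25.6%, so the count of panicle and spikelet regulators is near that of any genes. These reads do not set the stage of the panicles, which are called young here without a test. Around OsMADS1, HHZ H3K27me3 replicate 3 stood apart from the other 5 H3K27me3 libraries. Its peaks covered 17.6% of the 60 kb around the gene, against 66.5% to 84.5% in the others. All of its marked bases within OsMADS1 lay inside peaks of the HHZ input. The main H3K27me3 comparisons are given with and without this library. The HHZ lists of H3K27ac and of H3K4me1 shared 33.8% and 7.79% of the peaks of replicate 1 base for base with replicate 2, against 0.514% for H3K4me1 in JZ1560 and at most 0.0841% in any pair of H3K27me3 or H3K4me3 lists. Whether the 2 HHZ libraries of each of these marks are independent was not tested. JZ1560 H3K27me3 replicates 2 and 3 held the same number of peaks, 11383, with 0 shared base for base. Their independence was not tested either.

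All 7 genes were read in JZ1560 panicles, and OsMADS1 alone gave 46.7% of their 5832 reads (95% Wilson interval 45.45% to 48.0%). Each of the 7 was above 10 CPM, a level that 25.6% of all gene IDs reached. The median of the 7 was 62.6 CPM, beside 1.26 CPM over all gene IDs and 14.4 CPM over 25 other listed MADS genes. These values come from 1 library, and their intervals cover counting error only. Transcript lengths were not available, so the order of the genes below is one of reads and not of transcript level.

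OsMADS1 (LOC_Os03g11614), also known as LEAFY HULL STERILE1, specifies the lemma and palea and keeps the floret meristem determinate. It had 2725 reads, which is 380.1 CPM (95% Poisson interval 366 to 395). This made it number 202 of all gene IDs by reads and first among the 32 listed MADS genes, ahead of the B-class gene OsMADS16 with 1890 reads. OsMADS5 (LOC_Os06g06750), the close relative of OsMADS1 that shares part of its role in the spikelet, had 328 reads or 45.75 CPM (40.9 to 51.0) and was number 5619. OsMADS1 thus had 8.31 times the reads of OsMADS5 (95% exact interval 7.41 to 9.345).

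OsMADS7 (LOC_Os08g41950) and OsMADS8 (LOC_Os09g32948) are sister genes that act together in the inner floral organs and in flowering time. OsMADS7 had 922 reads, 129 CPM (120.4 to 137), and was number 1444. OsMADS8 had 801 reads, 112 CPM (104 to 119.7), and was number 1828. The ratio of OsMADS7 to OsMADS8 was 1.15 (95% exact interval 1.05 to 1.27), so the read counts of the pair differed by more than counting error. Such a small gap has no replicate behind it.

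OsMADS34 (LOC_Os03g54170), also called PAP2, shapes panicle branching and the sterile lemmas. It had the fewest reads of the 7, with 173 reads, 24.1 CPM (20.7 to 28.0), and was number 9283. In the RefSeq table, made on another assembly, its neighbour entry is OsMADS14, an AP1/FUL-type gene that acts with it in the inflorescence meristem. OsMADS14 had 478 reads, 2.76 times those of OsMADS34 (95% exact interval 2.32 to 3.31).

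The AGL6-type genes OsMADS6 (LOC_Os02g45770) and OsMADS17 (LOC_Os04g49150) could not be separated by reads. OsMADS6, known as MOSAIC FLORAL ORGANS1 for its role in palea and floral meristem identity, had 449 reads, 62.6 CPM (57.0 to 68.7). OsMADS17, which acts downstream of OsMADS1, had 434 reads, 60.5 CPM (55.0 to 66.5). Their ratio was 1.035 (95% exact interval 0.905 to 1.18), which spans equality, and they were numbers 4058 and 4224 of all gene IDs. Between neighbours in the order of reads, this was the only pair of the 7 whose count intervals overlapped.

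**Figure D1:**
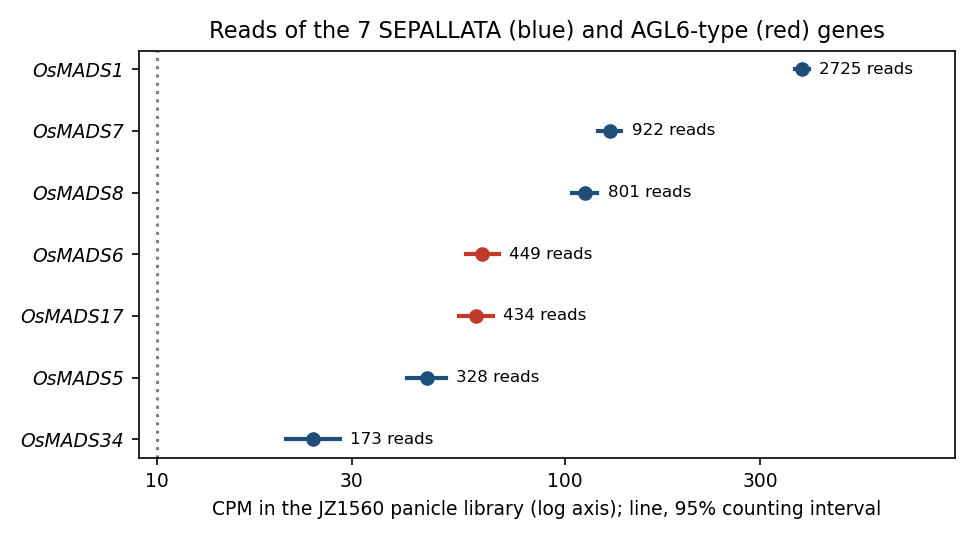
Reads of the 7 genes in the JZ1560 panicle library, as CPM on a log axis, with points for the value, lines for the 95% Poisson interval and read counts printed beside them. OsMADS1 lies apart at 380.1 CPM, OsMADS7 and OsMADS8 follow, the AGL6-type pair overlaps, and OsMADS34 is lowest at 24.1 CPM.

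The genes whose proteins are known partners of SEPALLATA proteins were read in the same library. Of the B class, which specifies lodicules and stamens, 3 of 3 genes reached 10 CPM, from 43.4 CPM for OsMADS4 to 264 CPM for OsMADS16. All 4 genes of the C and D classes, which specify stamens, carpels and ovules, reached it as well. OsMADS3, of the C class, had 194 CPM, and OsMADS21, of the D class, had 11.7 CPM. Of the AP1/FUL type, which marks the change to flowering meristems, 3 of 4 reached it, with OsMADS15 at 229 CPM and OsMADS18 at 228 CPM, and OsMADS20 had 16 reads.

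Levels in the other branches of the family ranged widely. None of the 3 B-sister genes, known from ovules and seeds, and none of the 3 SVP-type genes, which act before floral organs form, reached 10 CPM. The B-sister gene OsMADS31 was closest, at 9.76 CPM. Of the SOC1 type, linked to flowering time, 2 of 2 reached it, OsMADS50 at 134 CPM and OsMADS56 at 91.2 CPM. Of 5 genes of the ANR1 and AGL12 types, 2 did so, OsMADS26 with 21.5 CPM and OsMADS23 with 14.2 CPM. OsMADS32, a floral gene of grasses, stood at 14.4 CPM.

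**Figure D2:**
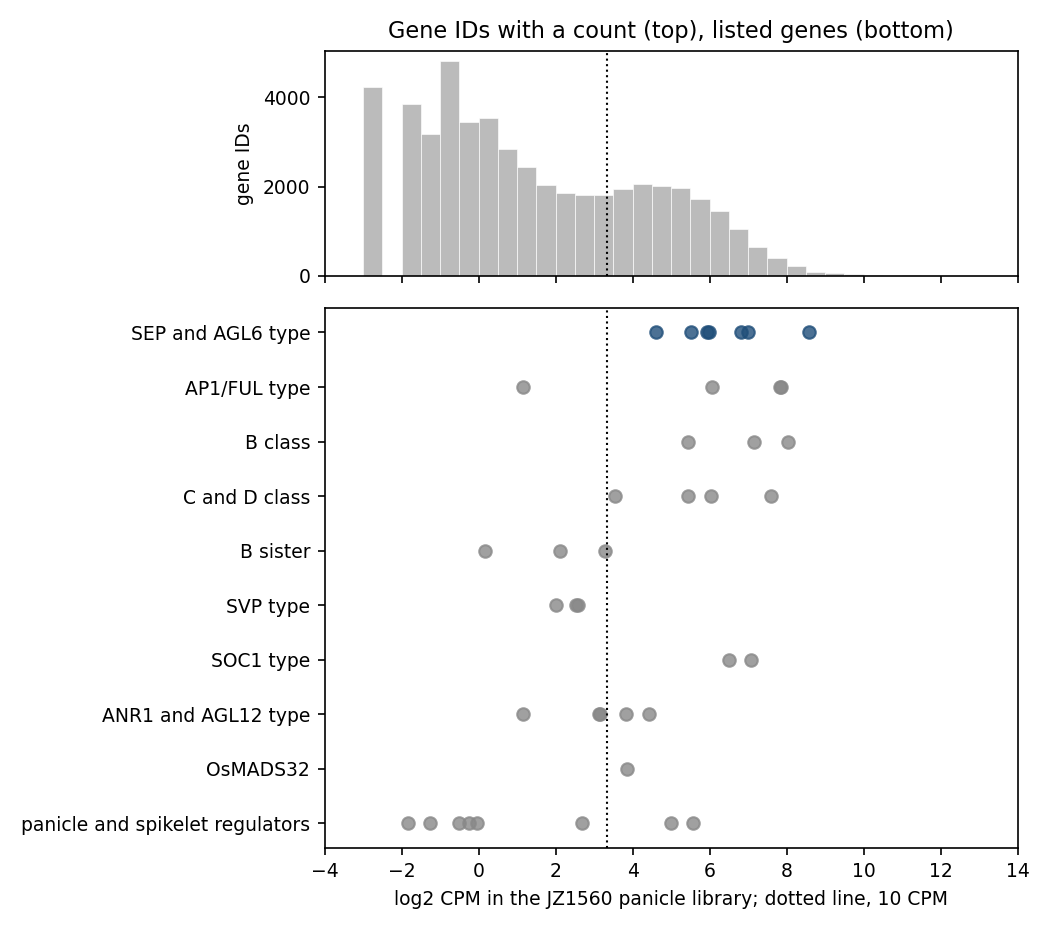
The upper panel counts gene IDs with at least 1 read by log2 CPM, and the lower panel shows each listed gene as a point by class, with a dotted line at 10 CPM. The 7 SEPALLATA and AGL6-type genes (blue) all lie to the right of the line, from 24.1 to 380.1 CPM, while the B-sister and SVP types lie to its left.

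OsMADS1 lies on chromosome 3 at 6052750 to 6061368, a length of 8619 bp, on the coordinates of the peak lists, whose genome build is not given in the sources used here. Its strand, exons and UTRs were not used here, so its ends are called low and high by coordinate. In RefSeq its neighbour entry on 1 side is DL (LOC_Os03g11600), DROOPING LEAF, which specifies carpels and leaf midribs and had 338 reads. The place of DL on these coordinates was not available. Peaks of every rice list were taken from 6010001 to 6070000, a window of 60 kb that was chosen because a wide H3K27me3 domain was known there. The presence and width of that domain are therefore a description.

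H3K27me3 peaks lay over OsMADS1 and most of the window in 5 of the 6 libraries. To give their outer ends, peaks were joined across gaps under 2 kb, and across a gap of any length between 5 kb below the gene and its high end, and the joined stretch is called the domain. It spanned 49.4 kb in HHZ replicate 1 and 49.5 kb in HHZ replicate 2, and 47.7 kb, 48.6 kb and 49.25 kb in the 3 JZ1560 libraries. The domain was 1 unbroken peak in HHZ replicate 2, 2 pieces in HHZ replicate 1 and in JZ1560 replicates 2 and 3, and 13 pieces in JZ1560 replicate 1. That last library covered 15.9 Mb of all sequences in total, the least of the 6, and 83.5% of its own span here. HHZ replicate 3 had 6 separate peaks in the window, each no wider than 2.93 kb, and the same rule gave it a stretch of 14.04 kb with 29.7% of it covered.

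The edges of the domain were alike in the 5 libraries. It began between 6017096 and 6017554, a spread of 458 bp, and ended between 6065212 and 6066602, a spread of 1390 bp. The high end depends on the 2 kb joining rule. Past it, a further H3K27me3 peak began at 6069725 and 6068809 in HHZ replicates 1 and 2. In JZ1560 replicates 1 and 3 such a peak began at 6069890 and 6069848. Each of these peaks ran out of the window, and JZ1560 replicate 2 had none. On its low side the domain met a block of H3K4me3 and H3K36me3 that was present in both cultivars. H3K36me3 peaks ended at 6017411 in HHZ and at 6017547 in JZ1560. H3K4me3 peaks ended at 6017298 in HHZ and at 6017338 and 6017759 in JZ1560. All 5 ends of these 2 marks lay within 663 bp of the lowest domain start. In JZ1560 H3K27ac did not stop there. Its peak ended at 6018248, and further H3K27ac peaks lay inside the domain, the first of them between 6019170 and 6029532. In HHZ neither H3K27ac library had a peak over this block. All HHZ H3K27ac peaks of the window lay inside the domain, the first of them between 6019548 and 6030018. The HHZ scores in the window ran from 50.1 to 80.9, where lists begin at 50. Input peaks also ended near this point, at 6017201 in HHZ and at 6018100 in JZ1560.

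**Figure D3:**
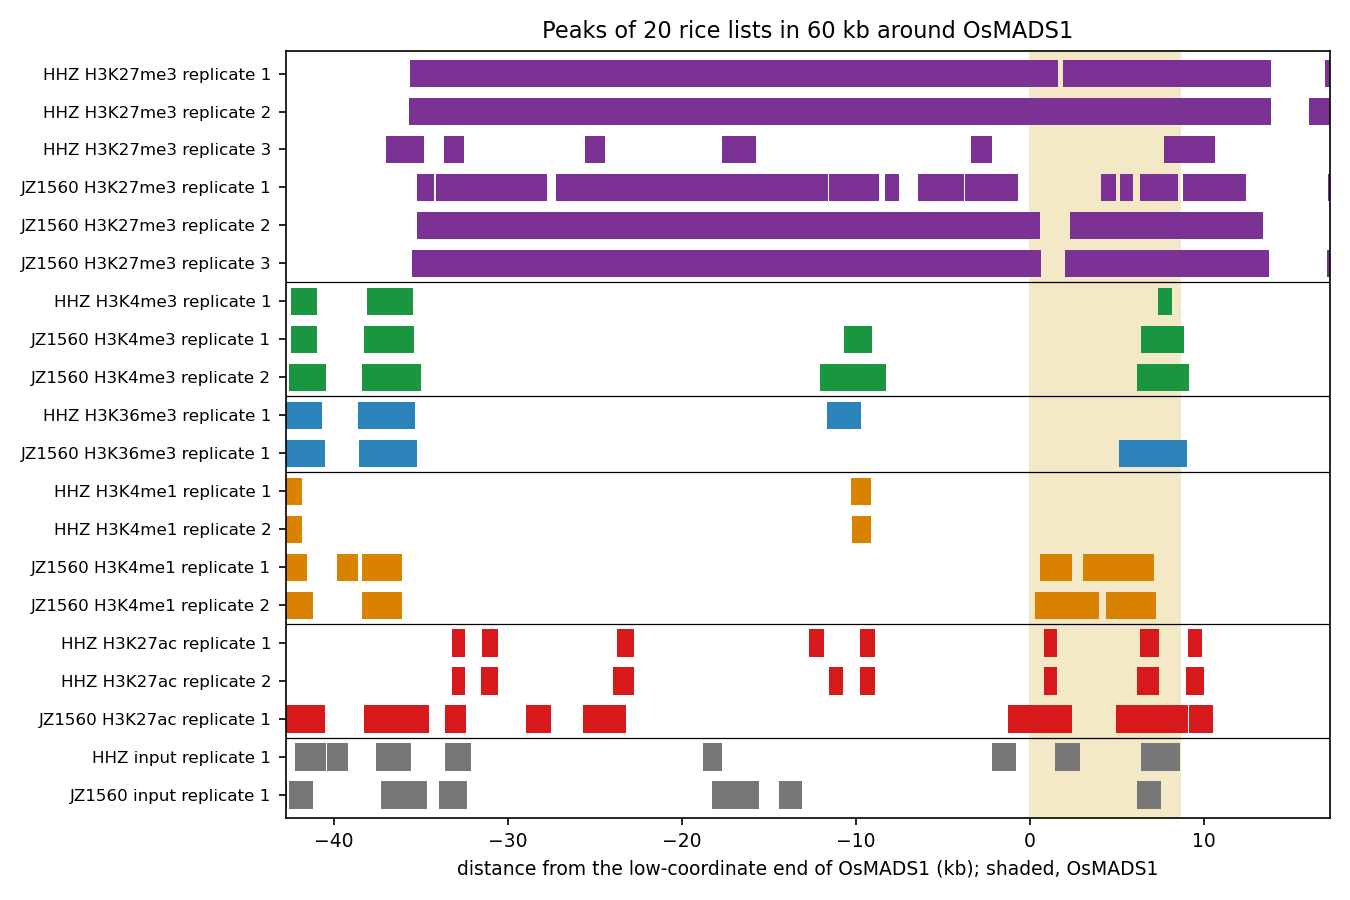
Peaks of the 20 rice lists, 1 row per library, by distance in kb from the low-coordinate end of OsMADS1, which is shaded. Purple H3K27me3 peaks cross the window in 5 of 6 libraries, and within the gene JZ1560 has green H3K4me3, blue H3K36me3 and orange H3K4me1 peaks where HHZ has 1 narrow H3K4me3 peak and neither of the other marks.

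Within the gene itself, H3K27me3 covered 96.7%, 100% and 10.5% of the bases in HHZ replicates 1, 2 and 3, and 43.7%, 80.1% and 84.15% in JZ1560 replicates 1, 2 and 3. HHZ replicates 1 and 2 lay above all JZ1560 libraries and HHZ replicate 3 lay below them, so the groups overlapped. Outside the peaks of each cultivar's own input, the values were 57.4%, 57.4% and 0% in HHZ and 29.9%, 64.2% and 68.3% in JZ1560. HHZ replicates 1 and 2 then lay below JZ1560 replicates 2 and 3, and the difference in means was -15.8 percentage points (p = 0.5, exact permutation, n = 3 each). The means were 38.3% in HHZ and 54.1% in JZ1560. HHZ replicates 1 and 2, at 57.4% each, lay above that JZ1560 mean, so the sign rests on HHZ replicate 3. This setting was not run without that library. With all bases kept, the means were 69.1 ± 50.7% in HHZ and 69.3 ± 22.3% in JZ1560 (SD, n = 3 each). The difference, HHZ minus JZ1560, was -0.248 percentage points with p = 1 in the exact two-sided permutation test, and the p adjusted over 4 comparisons was 1. Without HHZ replicate 3 the difference was 29.0 percentage points (p = 0.2, exact permutation, n = 2 and 3), and without JZ1560 replicate 2 or 3 it was 5.14 or 7.17 points, each with the opposite sign to the value from all libraries. Without HHZ replicate 1 or 2 it was -14.1 or -15.7 points, and without JZ1560 replicate 1 it was -13.05 points, each with the same sign. Over the 60 kb, HHZ had 61.5 ± 38.0% and JZ1560 74.9 ± 7.32% (SD, n = 3 each; p = 1, exact permutation), and without HHZ replicate 3 the difference turned from -13.4 to 8.51 points (p = 0.2, exact permutation). With 3 libraries against 3 the smallest p possible is 0.1, and no cultivar difference in H3K27me3 was detectable here.

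The cover by H3K27me3 was not even along the gene in JZ1560. The gene was divided into 4 parts of equal length. In the part at the low end, JZ1560 replicates 1, 2 and 3 had 0%, 27.1% and 36.6%, against 86.8% and 100% in HHZ replicates 1 and 2 and 0% in HHZ replicate 3. In the part at the high end the JZ1560 libraries had 95.3%, 100% and 100%. Every JZ1560 library thus had a gap in the mark near the low end, from 6053334 to 6055049 (1716 bp) in replicate 2, from 6053418 to 6054783 (1366 bp) in replicate 3, and over 4733 bp in replicate 1. In HHZ replicate 1 the gap was 285 bp, all of it inside a peak of the HHZ input, and in HHZ replicate 2 there was none. The H3K27me3 lists covered 51.6, 61.6 and 48.4 Mb in total in HHZ and 15.9, 33.2 and 41.4 Mb in JZ1560. Input peaks covered 33.55% of the low-end part in HHZ and 0% in JZ1560. The part of these differences in the low-end values was not tested. The gaps of JZ1560 replicates 2 and 3 lay wholly inside H3K27ac and both H3K4me1 peak sets of JZ1560, and no JZ1560 input peak reached them. In HHZ both H3K27ac libraries had a peak at the same place, 6053556 to 6054327, low in their lists with scores of 50.1 and 54.8, where lists begin at 50.

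H3K4me3 and H3K36me3 lay over the high end of OsMADS1 in JZ1560, and HHZ had a narrow H3K4me3 peak there and no H3K36me3 peak in the gene. H3K4me3 covered 25.6% and 28.5% of the gene in the JZ1560 libraries, the whole high-end part included, and 9.71% in the HHZ library. The JZ1560 peaks ran from 6059163 to 6061599 and from 6058915 to 6061914, and the HHZ peak ran from 6060113 to 6060949. Scores are the peak caller's own values and were used to place a peak within its list. In JZ1560 replicate 1, 91.8% of the H3K4me3 peaks scored lower than the one at OsMADS1, and in the HHZ list 2.17% did. In JZ1560 replicate 2 the peak had a score of 3100, a value that many peaks of that list share, with 61.5% of the list below it. Peaks of the inputs covered 100% (HHZ) and 50.7% (JZ1560) of the same part, and the HHZ H3K4me3 peak lay wholly inside one. Outside input peaks, H3K4me3 covered 12.3% and 12.6% of the gene in JZ1560 and 0% in HHZ. The part of the input in these values was not tested further.

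H3K36me3 covered 40.3% of OsMADS1 in JZ1560, from 6057895 to 6061786, and 0% in HHZ. Outside input peaks the JZ1560 value was 24.4%. Genome-wide, 17.1% of the JZ1560 H3K36me3 peaks met no HHZ H3K36me3 peak, and among the 9541 peaks that scored at least as high as the 1 at OsMADS1 the share was 2.31%. A pair of H3K36me3 peaks at the low side of the window was found in both cultivars, from 6007624 to 6012099 and from 6014117 to 6017411 in HHZ, and from 6007409 to 6012240 and from 6014184 to 6017547 in JZ1560. The mark had 1 library per cultivar, so the difference has no replicate check, and a list cannot tell an absent mark from one below the peak threshold.

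H3K4me1 separated the cultivars over OsMADS1 in all 4 libraries. It covered 69.5% and 76.1% of the gene in the JZ1560 libraries and 0% in both HHZ libraries. The difference, HHZ minus JZ1560, was -72.8 percentage points (72.8 ± 4.70% in JZ1560, SD, n = 2 each), with p = 0.3333 in the exact two-sided permutation test, the smallest that 2 against 2 allows, and an adjusted p of 0.667. The HHZ pair shares peaks base for base, as given above, so its n of 2 may overstate the replication. Each JZ1560 library had 2 H3K4me1 peaks in the gene and none of these met an HHZ H3K4me1 peak. Over the whole lists, 25.3% and 26.1% of JZ1560 H3K4me1 peaks met none, so this state is common for that mark. The JZ1560 peaks in the gene were also low in their lists, with between 16.1% and 25.8% of peaks scoring lower. The JZ1560 lists of this mark covered 61.4 and 64.7 Mb in total and the HHZ lists 27.5 and 26.9 Mb, and the part of that gap in the result was not tested. In the 60 kb, H3K4me1 covered 3.48% and 3.28% in HHZ and 17.9% and 17.3% in JZ1560 (difference -14.2 points, p = 0.3333, exact permutation, adjusted p = 0.667).

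H3K27ac peaks were called on OsMADS1 in both cultivars, at both ends of the gene, and those of HHZ had low scores. It covered 21.6% and 23.6% of the gene in the HHZ libraries and 70.3% in the JZ1560 library. The JZ1560 peaks ran from 6051487 to 6055170 and from 6057731 to 6061871. The 2 HHZ libraries shared their low-end peak exactly and had high-end peaks from 6059072 and 6058906, both ending at 6060163. Whether these 2 libraries are independent was not tested, as given above. The HHZ peaks scored 50.1 and 54.8 at the low end and 59.5 and 60.8 at the high end. Between 0.496% and 43.4% of their lists scored lower, against 53.3% and 88.8% for the 2 JZ1560 peaks. The HHZ lists covered 11.9 and 11.8 Mb in total and the JZ1560 list 67.0 Mb, so the widths cannot be compared as a cultivar difference. In HHZ 62.0% and 56.9% of the acetylated bases of the gene lay inside input peaks, and in JZ1560 22.6% did.

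**Figure D4:**
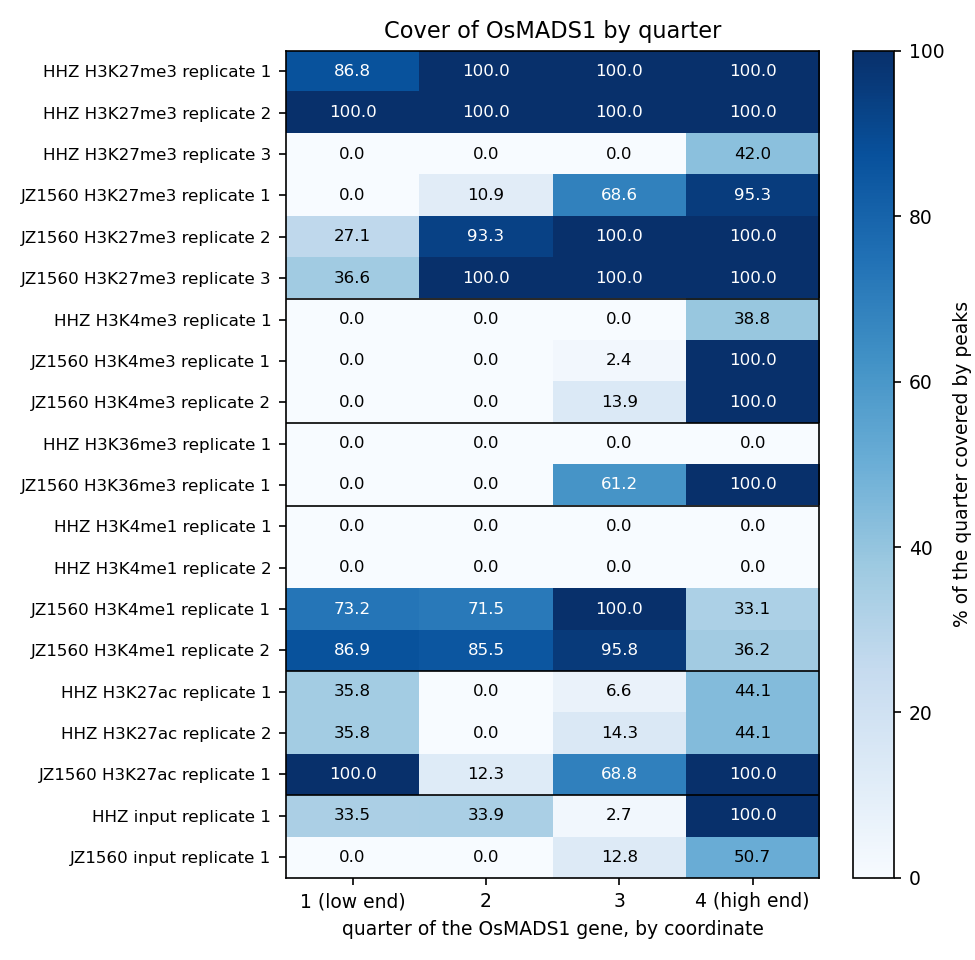
Percent of each of the 4 equal parts of the OsMADS1 gene covered by peaks, 1 row per library and 1 column per part from the low-coordinate to the high-coordinate end, darker for more cover. JZ1560 H3K27me3 is lowest in the low-end part, at most 36.6%, where JZ1560 H3K27ac reaches 100%, and the high-end part carries H3K27me3, H3K4me3, H3K36me3 and H3K27ac at once in JZ1560.

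In JZ1560 most bases of the high-end peaks of H3K36me3, H3K4me3 and H3K27ac also lay in H3K27me3 peaks. In replicates 2 and 3 the H3K27me3 peak was unbroken there. In replicate 1 it had a gap of 239 bp from 6057687 to 6057925, with 13.0% of it inside the H3K36me3 peak and 81.6% inside the H3K27ac peak. It also had a gap of 437 bp from 6058680 to 6059116, wholly inside the H3K36me3 and H3K27ac peaks, and a gap of 274 bp from 6061267 to 6061540, wholly inside the peaks of all 3 marks. The H3K36me3 peak was 80.9%, 100% and 100% inside the H3K27me3 peaks of replicates 1, 2 and 3. The H3K4me3 peaks were 88.8% and 84.1% inside those of replicate 1, and wholly inside those of replicates 2 and 3. The high-end H3K27ac peak was 78.1% inside the H3K27me3 peaks of replicate 1 and wholly inside those of the other 2. In HHZ, the H3K4me3 peak and the H3K27ac bases of the gene were likewise 100% inside H3K27me3 of replicates 1 and 2, and 58.2% and 0% inside that of replicate 3. These libraries pool many cells, so both marks on the same nucleosomes and the marks in different cells cannot be told apart. Input peaks covered 100% (HHZ) and 50.7% (JZ1560) of the high-end part, and the part of the input in this overlap was not tested.

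Peaks of this kind were uncommon in the lists as a whole. The share of peaks at least 50% inside H3K27me3 in each of the 3 JZ1560 libraries was 0.593% for H3K36me3, 1.79% and 2.84% for H3K4me3 replicates 1 and 2, and 6.18% for H3K27ac. For H3K4me1 replicates 1 and 2 it was 0.618% and 0.71%. At OsMADS1 the 1 H3K36me3 peak, both H3K4me3 peaks, 1 of 2 H3K27ac peaks and 1 of 2 H3K4me1 peaks in each library met this limit. The window was chosen for its H3K27me3 domain, so these counts describe the gene and nothing further was read from them. The 2 low-end H3K4me1 peaks were 0% inside H3K27me3 of replicate 1, the library with the 4733 bp gap.

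A second site within the domain, between 6040691 and 6044474 and so 8.28 kb to the low side of OsMADS1, carried other marks in each cultivar. JZ1560 had H3K4me3 peaks from 6042053 to 6043713 and from 6040691 to 6044474 in its 2 libraries, with no H3K36me3, H3K4me1 or H3K27ac peak. HHZ had an H3K36me3 peak from 6041082 to 6043040, H3K4me1 peaks from 6042487 and 6042564 to 6043626 in its 2 libraries, and no H3K4me3 peak. Both HHZ H3K27ac libraries also had a peak from 6043005, with scores of 77.7 and 60.3. Each had another peak that touched the site, from 6040056 to 6040959 in replicate 1 and from 6041219 to 6042044 in replicate 2. These other peaks did not overlap. Over the whole HHZ lists, 4.8% of H3K36me3 peaks and 4.35% and 4.05% of H3K4me1 peaks met no JZ1560 peak of the mark. Over the JZ1560 lists, 20.8% and 31.8% of H3K4me3 peaks met no HHZ peak. Such a share was not computed for H3K27ac, which had 1 JZ1560 library. The HHZ H3K36me3 peak was weak in its list, with 7.91% of peaks scoring lower, and the HHZ H3K4me1 peaks had 86.6% and 74.6% scoring lower. The JZ1560 H3K4me3 peaks had 35.7% and 35.4% of their lists below them. The site was picked out after its peaks were seen, and these values are a description. H3K27me3 covered 100% of the site in HHZ replicates 1 and 2 and in JZ1560 replicates 2 and 3, 89.3% in JZ1560 replicate 1 and 0% in HHZ replicate 3. Neither input had a peak there. No annotation on these coordinates was used, so the gene at this site, if any, is not named.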

How the data were processed

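RNA reads were counted per gene ID by the authors, and the deposited table holds whole-number counts in the layout of HTSeq. The authors deposited 1 peak list per library with a score for each peak, called with MACS per the file headers. FastQC, BWA, TopHat2 and HTSeq are named, without versions or roles, in the submitters' processing notes. For the genome build, annotation, strand setting, peak threshold and control of the peak calls, the value is not given in the sources used here.

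Counts outside gene IDs (no feature 26.1% and ambiguous 2.97% of all 10105085 counts) were left out of CPM. The file lists 0 reads as not uniquely aligned. Reads shared between near relatives (OsMADS7 and OsMADS8, OsMADS1 and OsMADS5, OsMADS6 and OsMADS17) and between overlapping or antisense genes are therefore uncertain. Count intervals are exact Poisson or exact binomial at 95%, and shares have Wilson intervals. One count was worth 0.1395 CPM. All 7 gene IDs matched the RefSeq table, whose assembly differs, so it served for names and neighbours only. The position of OsMADS1 was given with its gene ID.

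Starts of peaks were made 1-based, and overlap meant at least 1 bp. The percent of bases covered was compared between cultivars by exact two-sided permutation tests over libraries, adjusted by Benjamini-Hochberg over 4 comparisons. Coverage code was tested on simulated data. All 7 genes, every listed gene and every peak of the window could be named. The genes and lists were chosen with earlier results of these data known. Alternatives were the same number of top-scoring peaks per library (11383 for H3K27me3 and 15373 for H3K4me1), a score of at least 100, removal of bases inside input peaks, 2 kb flanks, leaving out each library, pairing by replicate number, and other CPM totals. The 3 wheat lists and 2 re-sequencing samples were not used here. Python 3.11.15, numpy 2.4.6, pandas 2.3.3, scipy 1.17.1 and matplotlib 3.10.9 were used.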

Additional observations from a re-analysis of the deposited data

How the results depend on the processing

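No cultivar comparison of cover passed a threshold of 0.05 under any alternative, and with these numbers of libraries none could: p ranged from 0.2 to 1 for H3K27me3 and from 0.3333 to 0.5 for H3K4me1. The H3K27me3 difference over OsMADS1 (HHZ minus JZ1560, -0.248 percentage points) changed sign with peaks of score 100 or more (6.006), with equal peak numbers (2.669), and without HHZ replicate 3 (29.03), JZ1560 replicate 2 (5.14) or JZ1560 replicate 3 (7.17). The cause was not tested. With bases inside input peaks removed it was -15.84 points (p = 0.5, exact permutation), a sign that rests on HHZ replicate 3. Leaving out each library gave -15.71 to 29.03 over the gene and -24.92 to 8.512 over the 60 kb, where the sign changed without HHZ replicate 3 alone. The H3K4me1 difference ran from -76.1 to -49.71 over the gene and from -14.54 to -9.057 over the 60 kb. Over the gene its sign could not change. HHZ had no H3K4me1 peak in the gene or its 2 kb flanks, and the other settings only take away peaks, bases or libraries. The 7 genes summed to 813.5 CPM, to 577.1 over all counts in the file and to 926.9 without the 100 gene IDs of highest count, a change in the denominator alone.

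With the replicate block, pairing libraries of the same number, the differences stayed at -0.248 and -13.4 points for H3K27me3 (p = 1 each, exact sign-flip test) and at -72.8 and -14.2 for H3K4me1 (p = 0.5 each, exact, the smallest that 2 pairs allow). Deviations of same-numbered libraries correlated at -0.321, 0.0661 and -0.302 for H3K27me3. Those of different number correlated at -0.2245 to 0.309, so the same number did not mark the H3K27me3 libraries most alike. For H3K4me1 the values were 0.00121 for the same number and -0.00121 for different numbers. With 2 libraries per cultivar these are 1 value with its sign turned, so they cannot decide the pairing.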
